A study of Mus musculus with 21 samples.

Results

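The genes described are 39 members of the interferon-stimulated and antigen presentation programme, taken by symbol from a list of type I and type II interferon-induced genes. All 39 were among the 22136 genes of the deposited count table, and 37 of them were among the 12100 genes tested. Mx1 and Cxcl10 did not pass the filter on low counts (at least 1 CPM, the counts scaled to a fixed library total, in at least 3 libraries). The data are bulk RNA-seq of left ventricle from wild type male C57BL/6 mice, 21 libraries in 7 groups of 3 biological replicates. Every mouse had surgery at 8 weeks of age and its heart was taken 8 weeks later. Sham mice had a thoracotomy without a ligature, and AB mice had aortic banding, in which the ascending aorta is narrowed so that the heart pumps against more resistance. In AB_Implant, banded animals carried a vagus nerve device, put in at week 1, that delivered no current. In the other 4 groups a biodegradable triboelectric nanogenerator stimulated the left cervical vagus nerve of banded animals at low level (4 µA, 2 Hz). AB_LLVNS20min_1w, AB_LLVNS20min_2w and AB_LLVNS20min_4w had 20 min a day from week 1, 2 or 4, for 7, 6 and 4 weeks. AB_LLVNS10min_1w had 10 min a day from week 1 for 7 weeks. No group carried the device without banding, so the device was set only against AB.

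Interferons are secreted proteins that cells release on sensing viral nucleic acid, tissue damage or immune signals. Type I interferons act through a complex that holds STAT2 and IRF9 and binds the interferon-stimulated response element (ISRE), and type II interferon acts mainly through the gamma-activated site (GAS). The genes they switch on stop viral translation and replication, coat or attack intracellular pathogens, and raise the supply of peptides for MHC class I molecules. Heart tissue holds these transcripts in its endothelial cells, fibroblasts, resident macrophages and muscle cells.

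The promoter windows of 6 members are shown as examples of windows that hold, or lack, the letters of the ISRE. Of these only Psmb9 lacks them, so the examples do not represent the share of members given below. The sequences are from RefSeq, build GRCm38.p6, and cover the 250 bases before the start site, 5′ to 3′ on the strand of the gene. Capitals mark matches to GAAANNGAAA or to its reverse complement TTTCNNTTTC.
Isg15, chr4:156200819-156201068, minus strand: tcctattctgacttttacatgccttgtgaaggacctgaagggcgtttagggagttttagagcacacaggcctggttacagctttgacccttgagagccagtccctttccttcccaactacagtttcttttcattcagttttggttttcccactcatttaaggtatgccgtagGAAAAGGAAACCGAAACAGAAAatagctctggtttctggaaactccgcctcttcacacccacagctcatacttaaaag
Ifit3, chr19:34583279-34583528, plus strand: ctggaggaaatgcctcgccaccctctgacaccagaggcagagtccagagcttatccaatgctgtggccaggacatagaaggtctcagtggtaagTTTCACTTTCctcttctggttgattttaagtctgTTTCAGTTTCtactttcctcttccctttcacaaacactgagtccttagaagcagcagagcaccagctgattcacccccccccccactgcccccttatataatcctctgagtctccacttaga
Bst2, chr8:71537473-71537722, minus strand: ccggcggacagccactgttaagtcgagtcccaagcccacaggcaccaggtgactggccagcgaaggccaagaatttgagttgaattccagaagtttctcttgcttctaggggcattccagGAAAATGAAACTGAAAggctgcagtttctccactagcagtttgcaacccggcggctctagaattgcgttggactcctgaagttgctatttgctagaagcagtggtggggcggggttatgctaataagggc
Gbp3, chr3:142559794-142560043, plus strand: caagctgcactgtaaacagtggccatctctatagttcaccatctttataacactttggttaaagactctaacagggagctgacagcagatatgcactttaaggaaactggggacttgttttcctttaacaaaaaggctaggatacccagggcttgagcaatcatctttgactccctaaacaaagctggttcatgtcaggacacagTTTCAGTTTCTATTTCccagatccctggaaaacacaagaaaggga
Igtp, chr11:58199306-58199555, plus strand: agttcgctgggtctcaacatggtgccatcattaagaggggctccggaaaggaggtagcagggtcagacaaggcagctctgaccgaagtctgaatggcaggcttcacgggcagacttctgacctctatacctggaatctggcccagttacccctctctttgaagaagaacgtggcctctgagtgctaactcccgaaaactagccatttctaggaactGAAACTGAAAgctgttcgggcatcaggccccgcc
Psmb9, chr17:34187331-34187580, minus strand: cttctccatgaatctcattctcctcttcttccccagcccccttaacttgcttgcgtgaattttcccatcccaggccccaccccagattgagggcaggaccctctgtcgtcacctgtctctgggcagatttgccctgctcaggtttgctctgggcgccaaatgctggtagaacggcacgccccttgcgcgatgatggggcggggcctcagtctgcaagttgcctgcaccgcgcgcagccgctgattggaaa
Of the 39 members, 28 had a RefSeq window, and 14 of the 28 (50.0%) held at least 1 match to GAAANNGAAA on either strand. In the same windows of 27025 genes the share was 3.46%. Gbp3 has a second RefSeq window, for another start site, with 0 matches. In the Isg15 window 3 matches overlap in 1 run of capitals. GAS letters, TTCNNNGAA, were found in 9 of the 28 (32.1%) against 8.13% of the 27025 genes, among them Bst2 and Igtp. Psmb9 held neither, and its RefSeq start lies 226 bases from that of Tap1 on the other strand, so both genes share this stretch. A match is a description of letters and no evidence of binding.

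The members were lowly to moderately expressed in these hearts. By CPM per kilobase of the longest annotated transcript, averaged over 21 libraries, Bst2, which tethers budding virus to the cell, was the highest at 20.3. Ifi35 followed at 12.7, the immunoproteasome subunit Psmb8 at 8.27, Igtp at 6.70 and Gbp2 at 5.70. The lowest were Gbp7 at 0.212, Cxcl10 at 0.155 and Mx1 at 0.118. Mx1 had 126 counts and Cxcl10 had 110 counts in all 21 libraries together. Of 17 interferon genes, 13 had 0 counts in all 21 libraries and the other 4 had 8 counts in all, 5 of them from Ifnab.

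No member passed the test in any of 9 comparisons between groups or in the F test over all 7 groups. The heart of 1 sham-operated mouse stood apart. The library of Sham replicate 2 was the highest of 21 for 22 of the 37 members tested (59.5%), against 3.47% of all genes tested. The map of all members by library shows this as a red column. In bulk tissue, fewer cells of a type and less RNA per cell cannot be told apart.

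**Figure D1:**
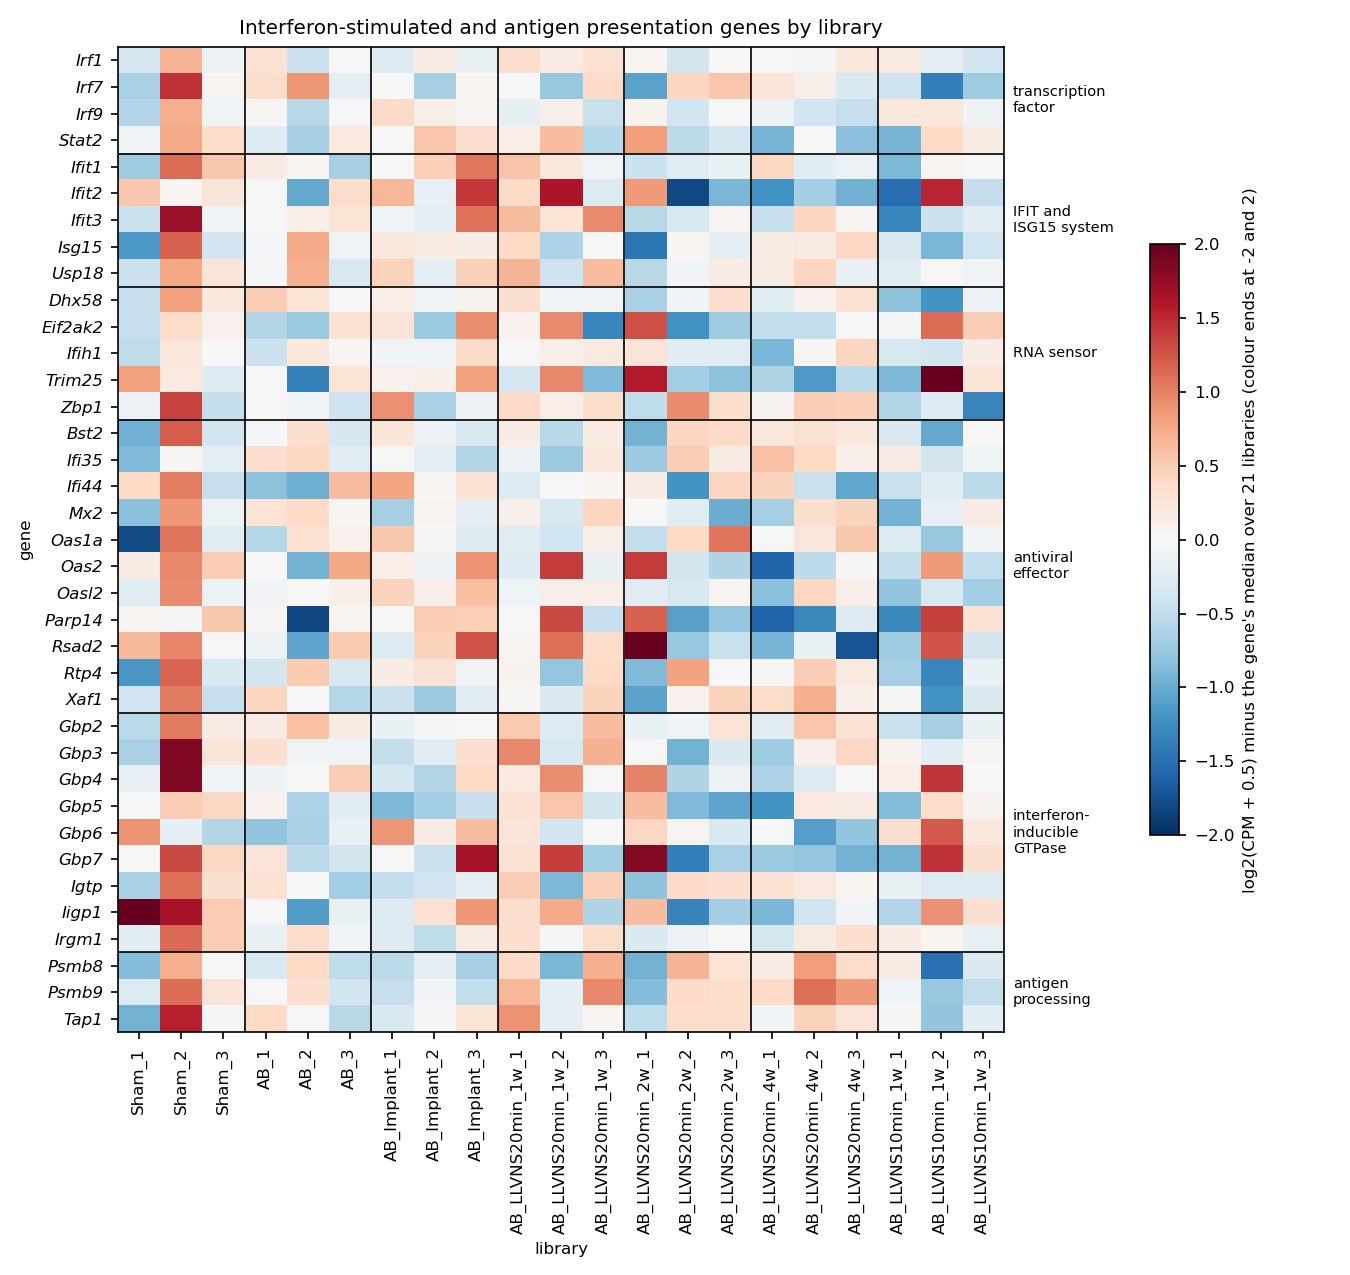
The 37 tested members (rows, grouped by role) in 21 libraries (columns, grouped by treatment), as log2(CPM + 0.5) minus the median of that gene over the 21 libraries, with the colour scale ending at -2 and 2. Sham_2 is above the median for 35 of 37 members. The columns of AB_LLVNS20min_1w replicate 2, AB_LLVNS20min_2w replicate 1 and AB_LLVNS10min_1w replicate 2 mix strong red and strong blue cells.

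Library totals ran from 11577509 to 19414865 counts, and mitochondrially encoded genes took 34.4% to 55.3% of them. The summed CPM of 10 cardiomyocyte markers was 50944 to 99803, with none at 0, so each library held ventricular muscle RNA. T and NK cell markers summed to at most 4.47 CPM. Libraries also differed in how their counts depended on transcript length. This is given as a length slope, the change in log2(CPM + 0.5), relative to the mean of each gene over libraries, per log2 unit of the longest transcript, and it ran from -0.291 to 0.469. AB_LLVNS20min_1w replicate 2, AB_LLVNS20min_2w replicate 1 and AB_LLVNS10min_1w replicate 2 had slopes above 0.3. Liver cell markers summed to 24.4 to 128 CPM in the 12 stimulated libraries and to 1.90 to 8.68 CPM in the other 9, and their part in the results was not tested.

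Values below are normalized CPM, in which the library total is first multiplied by its TMM factor, in replicates 1, 2 and 3 of each group, in that order. Among the transcription factors, Irf7 is the amplifier of type I interferon production. Irf7 held 6.21, 28.0 and 10.4 in Sham, 12.9, 18.7 and 8.77 in AB and 9.91, 6.13 and 10.3 in AB_Implant. In the stimulated groups, Irf7 held 9.98, 5.73 and 13.1 in AB_LLVNS20min_1w, 4.49, 13.6 and 14.8 in AB_LLVNS20min_2w, 12.0, 10.9 and 7.96 in AB_LLVNS20min_4w and 7.35, 3.55 and 5.91 in AB_LLVNS10min_1w. Sham replicate 2 was the highest library and AB replicate 2 the next, at 18.7. All AB_LLVNS10min_1w libraries were below all AB and all AB_LLVNS20min_4w libraries, pairs for which no share of all genes was computed. The other pairs of groups overlapped. Irf7 overlaps Phrf1 on the other strand, so its counts are uncertain.

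Irf1 drives many interferon gamma targets. Irf1 held 6.99, 14.7 and 8.17 in Sham, 11.04, 6.51 and 8.94 in AB and 7.39, 9.98 and 8.08 in AB_Implant. With stimulation, Irf1 held 11.4, 10.0 and 10.98 in AB_LLVNS20min_1w, 9.21, 6.83 and 8.99 in AB_LLVNS20min_2w, 8.91, 8.78 and 10.5 in AB_LLVNS20min_4w and 10.1, 7.79 and 6.75 in AB_LLVNS10min_1w. Its values ran from 6.51 in AB replicate 2 to 14.7 in Sham replicate 2. Irf9, the DNA-binding partner of STAT2, overlaps Rnf31 on the same strand and is uncertain for that reason. Irf9 held 4.45, 11.8 and 6.56 in Sham, 6.99, 4.53 and 6.90 in AB and 9.18, 7.49 and 7.08 in AB_Implant. Irf9 then held 6.06, 7.41 and 4.94 in AB_LLVNS20min_1w, 7.27, 5.20 and 6.94 in AB_LLVNS20min_2w, 6.37, 5.15 and 4.89 in AB_LLVNS20min_4w and 8.03, 8.16 and 6.43 in AB_LLVNS10min_1w. All AB_Implant libraries were above all AB libraries and above all AB_LLVNS20min_4w libraries. Stat2 carries the activating domain of the same complex. Stat2 held 5.16, 9.58 and 7.21 in Sham, 4.46, 3.25 and 6.29 in AB and 5.46, 8.24 and 7.04 in AB_Implant. Under stimulation its values were 6.00, 8.66 and 3.53 in AB_LLVNS20min_1w, 10.1, 3.66 and 4.18 in AB_LLVNS20min_2w, 2.64, 5.40 and 2.82 in AB_LLVNS20min_4w and 2.62, 7.38 and 6.10 in AB_LLVNS10min_1w. The highest value was that of AB_LLVNS20min_2w replicate 1, one of the libraries of steep length slope. In the F test the adjusted p was 0.605 for Irf7, 0.823 for Irf1, 0.731 for Irf9 and 0.669 for Stat2 (edgeR's quasi-likelihood test, Benjamini-Hochberg adjustment over 12100 genes, used for all adjusted p-values below unless another tool is named).

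In the IFIT and ISG15 system, Isg15 is a ubiquitin-like protein joined to other proteins. Isg15 held 1.18, 7.91 and 2.35 in Sham, 3.15, 5.82 and 3.04 in AB and 3.79, 3.71 and 3.65 in AB_Implant. Stimulated hearts held 4.42, 1.93 and 3.22 in AB_LLVNS20min_1w, 0.875, 3.37 and 2.76 in AB_LLVNS20min_2w, 3.64, 3.71 and 4.48 in AB_LLVNS20min_4w and 2.54, 1.48 and 2.34 in AB_LLVNS10min_1w. AB_Implant was the tightest group, and all of its libraries were above those of AB_LLVNS20min_2w and AB_LLVNS10min_1w. Ifit3 belongs to a family that binds viral RNA, and it has a near-identical copy, Ifit3b, with which it may share reads. Ifit3 held 3.99, 19.6 and 5.21 in Sham, 5.55, 6.11 and 6.84 in AB and 5.19, 4.84 and 12.4 in AB_Implant. The stimulated libraries held 8.90, 6.85 and 11.2 in AB_LLVNS20min_1w, 3.61, 4.33 and 5.75 in AB_LLVNS20min_2w, 3.91, 7.68 and 5.80 in AB_LLVNS20min_4w and 1.94, 4.01 and 4.74 in AB_LLVNS10min_1w. Sham replicate 2 was 1.58-fold above the next library, AB_Implant replicate 3. The adjusted p of the F test was 0.724 for Isg15 and 0.568 for Ifit3.

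Ifih1 encodes MDA5, a sensor of long double-stranded RNA. Ifih1 held 3.66, 6.41 and 5.41 in Sham, 3.91, 6.31 and 5.57 in AB and 5.19, 5.22 and 7.21 in AB_Implant. With vagus nerve stimulation the values were 5.37, 5.98 and 6.25 in AB_LLVNS20min_1w, 6.54, 4.62 and 4.49 in AB_LLVNS20min_2w, 2.64, 5.57 and 7.46 in AB_LLVNS20min_4w and 4.23, 4.06 and 6.04 in AB_LLVNS10min_1w. Every pair of groups overlapped, and the F test gave an adjusted p of 0.977. Among the antiviral effectors, Rsad2 encodes viperin, an enzyme that makes a chain-terminating nucleotide. Rsad2 held 2.09, 2.76 and 1.15 in Sham, 1.03, 0.296 and 1.88 in AB and 0.865, 1.74 and 3.44 in AB_Implant. In the stimulated groups, Rsad2 held 1.1999, 3.05 and 1.61 in AB_LLVNS20min_1w, 6.92, 0.481 and 0.709 in AB_LLVNS20min_2w, 0.364, 1.01 and 0 in AB_LLVNS20min_4w and 0.507, 3.46 and 0.779 in AB_LLVNS10min_1w. AB_LLVNS20min_2w replicate 1 was 2.00-fold above the next library, and AB_LLVNS20min_4w replicate 3 had 0 counts. Oasl2 is a relative of the oligoadenylate synthetases. Oasl2 held 3.66, 8.99 and 4.06 in Sham, 4.18, 4.44 and 4.80 in AB and 6.19, 4.92 and 6.96 in AB_Implant. With stimulation, Oasl2 held 4.17, 4.80 and 4.84 in AB_LLVNS20min_1w, 3.73, 3.47 and 4.65 in AB_LLVNS20min_2w, 2.27, 6.08 and 4.81 in AB_LLVNS20min_4w and 2.37, 3.46 and 2.60 in AB_LLVNS10min_1w. All AB_LLVNS10min_1w libraries were below all AB_Implant and all AB_LLVNS20min_1w libraries, beside 6.15% and 4.50% of all genes that separated in this way. They were also below all Sham, AB and AB_LLVNS20min_2w libraries, pairs for which no share of all genes was computed. The gap to AB_LLVNS20min_2w was minimal, 3.458 against 3.466, and they overlapped with AB_LLVNS20min_4w. Bst2, whose window is printed above, is named after its values were seen. Bst2 held 7.84, 37.0 and 12.0 in Sham, 15.3, 19.7 and 12.4 in AB and 18.7, 14.5 and 12.5 in AB_Implant. Bst2 then held 17.5, 10.6 and 17.7 in AB_LLVNS20min_1w, 7.95, 21.3 and 20.6 in AB_LLVNS20min_2w, 18.6, 19.5 and 18.3 in AB_LLVNS20min_4w and 12.8, 7.52 and 15.7 in AB_LLVNS10min_1w. Sham replicate 2 was 1.74-fold above the next library.

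Among the interferon-inducible GTPases, Gbp2 and Gbp3 are guanylate-binding proteins that coat vacuoles of pathogens. Gbp2 held 8.76, 27.1 and 14.5 in Sham, 14.6, 19.7 and 14.4 in AB and 11.8, 12.6 and 12.97 in AB_Implant. Under stimulation its values were 18.8, 10.8 and 20.1 in AB_LLVNS20min_1w, 11.7, 12.1 and 15.8 in AB_LLVNS20min_2w, 11.1, 19.2 and 15.9 in AB_LLVNS20min_4w and 9.47, 8.02 and 11.7 in AB_LLVNS10min_1w. Sham replicate 2 led again. Gbp3 held 4.38, 27.3 and 8.67 in Sham, 9.12, 6.80 and 6.73 in AB and 4.99, 6.05 and 9.07 in AB_Implant. Stimulated hearts held 14.4, 5.61 and 12.0 in AB_LLVNS20min_1w, 7.15, 3.47 and 5.75 in AB_LLVNS20min_2w, 4.18, 7.68 and 9.70 in AB_LLVNS20min_4w and 7.52, 6.04 and 7.27 in AB_LLVNS10min_1w. For Gbp3 it was 1.89-fold above the next library, AB_LLVNS20min_1w replicate 1. Gbp6, of the same family, has a near-identical copy in Gbp10 and is uncertain. Gbp6 held 9.94, 4.37 and 3.21 in Sham, 2.74, 3.06 and 4.53 in AB and 9.78, 5.67 and 8.04 in AB_Implant. The stimulated libraries held 6.19, 3.80 and 5.04 in AB_LLVNS20min_1w, 6.92, 5.29 and 4.02 in AB_LLVNS20min_2w, 5.09, 2.11 and 2.74 in AB_LLVNS20min_4w and 6.59, 12.6 and 5.97 in AB_LLVNS10min_1w. Its AB_Implant libraries lay above all of AB and all of AB_LLVNS20min_4w, and Sham replicate 2 was not the highest. Igtp and Irgm1 are immunity-related GTPases, and Igtp overlaps Irgm2 on the same strand. Igtp held 8.17, 28.8 and 16.4 in Sham, 16.1, 13.1 and 7.89 in AB and 9.25, 9.98 and 11.5 in AB_Implant. With vagus nerve stimulation the values were 18.6, 6.79 and 18.3 in AB_LLVNS20min_1w, 7.30, 17.3 and 16.6 in AB_LLVNS20min_2w, 16.3, 15.0 and 13.5 in AB_LLVNS20min_4w and 11.9, 10.8 and 10.9 in AB_LLVNS10min_1w. Sham replicate 2 was 1.55-fold above the next library. Irgm1 held 11.2, 29.4 and 18.8 in Sham, 11.9, 16.9 and 12.6 in AB and 10.98, 9.07 and 14.6 in AB_Implant. In the stimulated groups, Irgm1 held 16.8, 12.8 and 17.0 in AB_LLVNS20min_1w, 10.7, 12.1 and 13.2 in AB_LLVNS20min_2w, 10.3, 15.0 and 16.7 in AB_LLVNS20min_4w and 14.9, 13.6 and 11.7 in AB_LLVNS10min_1w. For Irgm1, Sham replicates 2 and 3 were the highest of all. Iigp1 loads onto the vacuole membrane of parasites. Iigp1 held 35.4, 25.0 and 11.02 in Sham, 7.61, 3.25 and 6.79 in AB and 6.25, 9.53 and 14.3 in AB_Implant. With stimulation, Iigp1 held 9.73, 13.3 and 4.84 in AB_LLVNS20min_1w, 11.9, 2.70 and 4.57 in AB_LLVNS20min_2w, 3.82, 5.66 and 7.30 in AB_LLVNS20min_4w and 4.90, 14.8 and 9.61 in AB_LLVNS10min_1w. All Sham libraries were above all AB libraries, and Sham replicate 1, not replicate 2, was the highest.

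In antigen processing, Psmb8 and Psmb9 are catalytic subunits of the immunoproteasome, and Tap1 is part of the pump that moves peptides to MHC class I. Psmb8 held 8.24, 25.8 and 15.4 in Sham, 12.3, 20.4 and 10.7 in AB and 10.4, 13.3 and 9.49 in AB_Implant. Psmb8 then held 20.2, 7.97 and 25.5 in AB_LLVNS20min_1w, 7.76, 24.8 and 18.8 in AB_LLVNS20min_2w, 17.4, 27.9 and 20.0 in AB_LLVNS20min_4w and 17.3, 5.12 and 12.5 in AB_LLVNS10min_1w. The values spread widely within each stimulated group except AB_LLVNS20min_4w. Psmb9 held 4.84, 13.5 and 7.26 in Sham, 5.96, 7.69 and 4.47 in AB and 4.19, 5.75 and 4.10 in AB_Implant. Under stimulation its values were 9.73, 5.23 and 12.1 in AB_LLVNS20min_1w, 3.04, 7.89 and 7.73 in AB_LLVNS20min_2w, 8.00, 13.4 and 11.2 in AB_LLVNS20min_4w and 5.66, 3.3198 and 4.09 in AB_LLVNS10min_1w. All AB_LLVNS20min_4w libraries of Psmb9 were above all AB_Implant libraries. Tap1 held 3.66, 23.003 and 7.36 in Sham, 10.1, 7.49 and 4.97 in AB and 5.99, 7.34 and 9.16 in AB_Implant. Stimulated hearts held 14.5, 6.54 and 7.76 in AB_LLVNS20min_1w, 5.10, 9.82 and 9.70 in AB_LLVNS20min_2w, 7.18, 10.6 and 9.04 in AB_LLVNS20min_4w and 7.61, 4.15 and 6.30 in AB_LLVNS10min_1w. For Tap1, Sham replicate 2 was 1.59-fold above the next library. Psmb9 and Tap1 overlap at their starts on opposite strands in GENCODE, whose Psmb9 start lies inside Tap1, unlike the RefSeq start. Reads from the shared stretch cannot be told apart without strand. The chemokine Cxcl10, which draws T cells, was at the limit of detection and overlaps Art3 on the other strand. Cxcl10 held 0, 1.198 and 0.0501 in Sham, 0.411, 0 and 0.221 in AB and 0.200, 0.529 and 0.539 in AB_Implant. The stimulated libraries held 0.821, 0.436 and 0.705 in AB_LLVNS20min_1w, 0.228, 0.481 and 0.236 in AB_LLVNS20min_2w, 0.182, 0.338 and 0.415 in AB_LLVNS20min_4w and 0.169, 0.0461 and 0.0649 in AB_LLVNS10min_1w. Sham replicate 1 and AB replicate 2 had 0 counts, and no test was made.

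**Figure D2:**
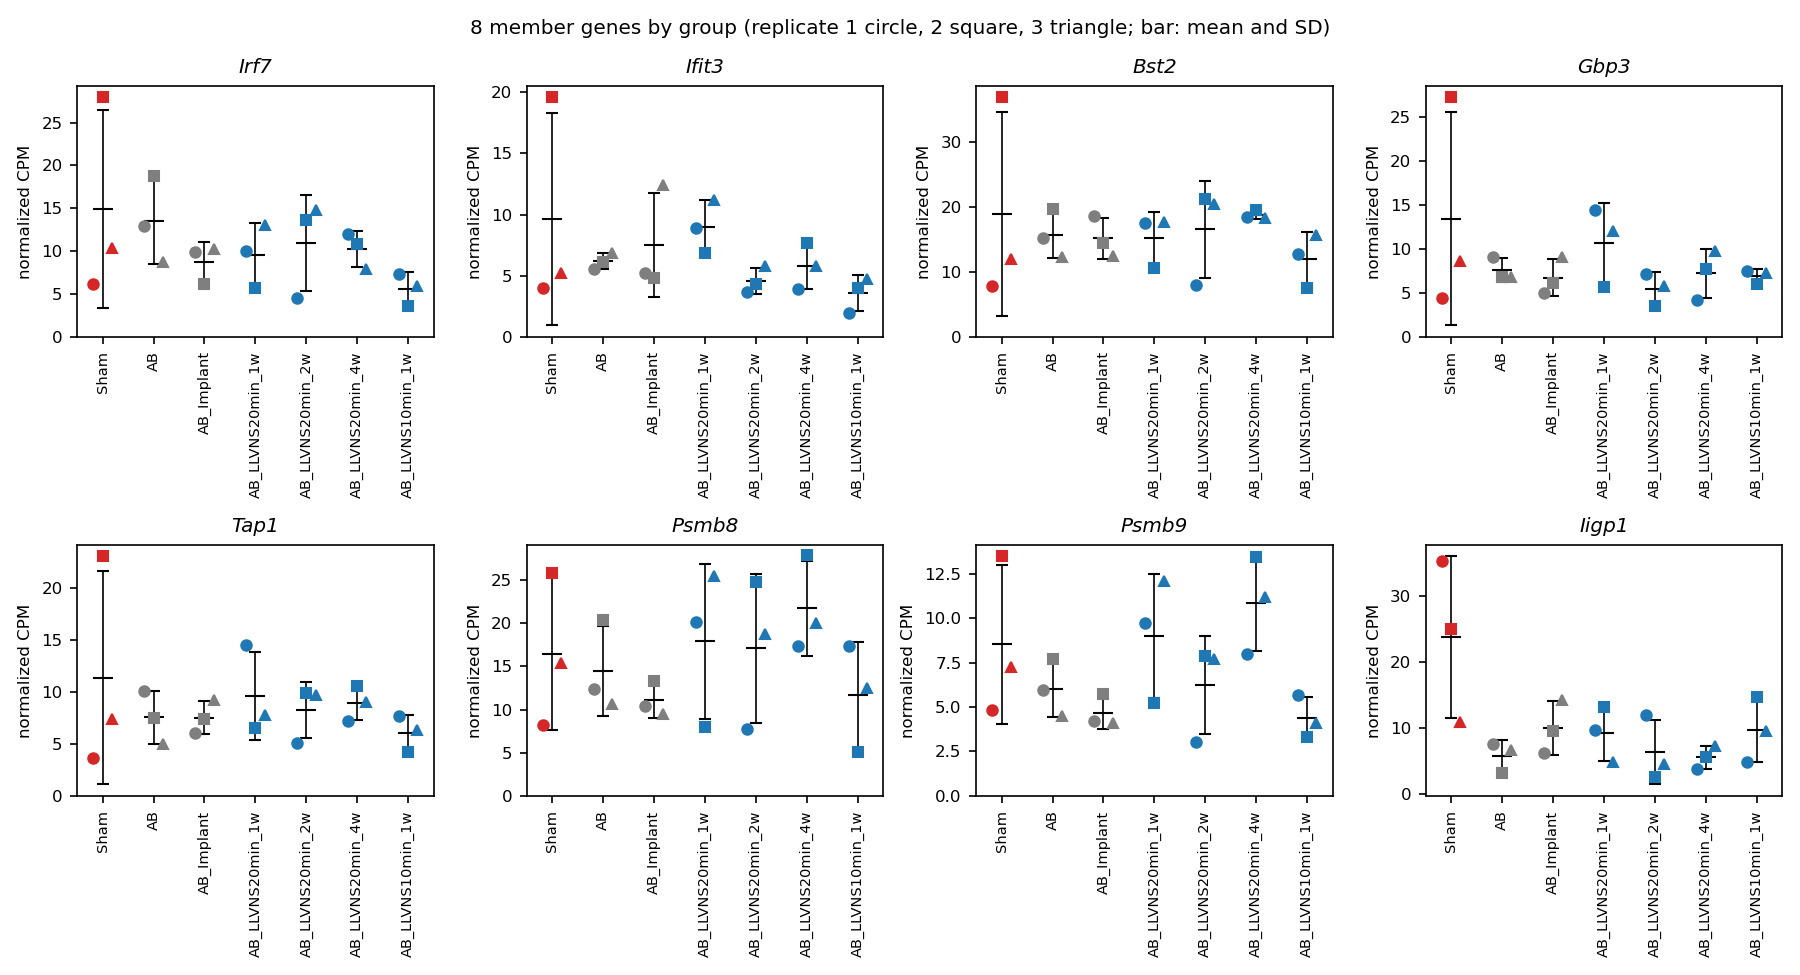
Normalized CPM of 8 members by group, with circles, squares and triangles for replicates 1, 2 and 3 and bars for the mean and SD of 3 libraries. The panels are a selection that includes Bst2, named after its values were seen, so their share does not stand for all tested members. In 6 of the 8 panels the Sham square is the highest point. In Psmb8 it is second to AB_LLVNS20min_4w replicate 2, and in Iigp1 to Sham replicate 1.

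Sham replicate 2 was above the 21-library median for 35 of 37 members, by a median of 1.02 on the log2 scale. The excess was 1 or more log2 units in 19 of 37 members (51.4%), against 1.05% of all genes tested. By role, it was the highest library for 4 of 5 genes of the IFIT and ISG15 system, 3 of 4 transcription factors, 2 of 5 RNA sensors, 6 of 11 antiviral effectors, 5 of 9 GTPases and 2 of 3 antigen processing genes. Among 51 other interferon-stimulated genes tested it was the highest for 19 and above the median for 47. It was the highest for 3 of 19 MHC class I genes, 0 of 8 MHC class II genes and 0 of 22 interferon receptor and signalling genes. These counts describe 1 mouse and carry no test.

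The length slope of that library was 0.0021, its mitochondrial share was 48.5% and its total was 16469523 counts. Its 9 neutrophil markers summed to 29.3 CPM, the third highest of 21, against 5.62 and 9.97 CPM in the other Sham libraries. The most abundant of them, S100a9, was at 13.2 CPM, and Ly6g had 0 counts. Its macrophage and monocyte markers ranked 11 of 21, T and NK cell markers 6, B cell markers 7, dendritic cell markers 16, endothelial markers 13 and red blood cell markers 21. The part of these cells in the result was not tested.

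**Figure D3:**
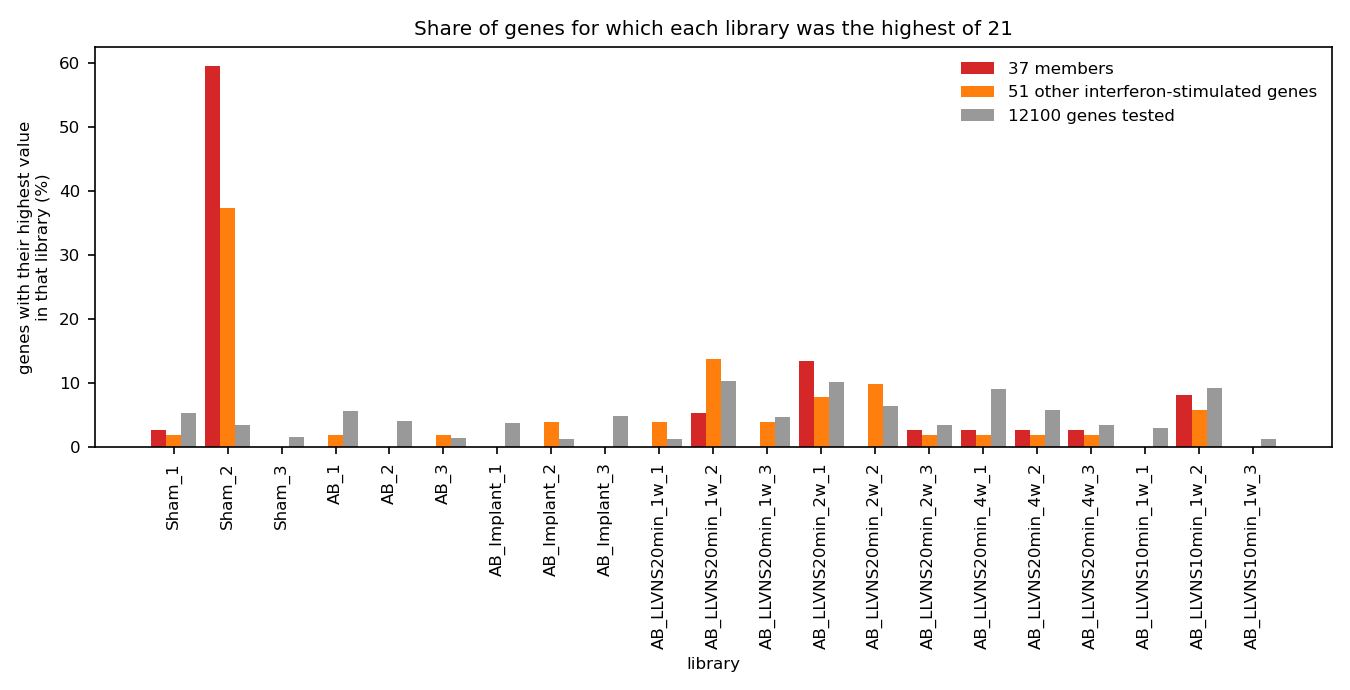
Percent of genes for which each of 21 libraries held the highest value, for 37 members, 51 other interferon-stimulated genes and 12100 genes tested. The Sham_2 bar is 59.5% for members, 37.3% for the other interferon-stimulated genes and 3.47% for all genes.

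AB was set against Sham to ask what pressure overload does to these genes. Of 37 members, 33 had a lower and 4 a higher value in AB, with a median log2 fold change of -0.50 against -0.02 over all genes tested. All 9 GTPases were on the lower side. The call count was 0 of 37 members by edgeR and 0 by DESeq2, beside 0% of all genes by edgeR and 11 genes by DESeq2. An unadjusted p under 0.05 was held by 1 member, against 4.99% of all genes. That member, Iigp1, had a log2 fold change of -2.0 ± 0.57 (SE), from a mean of 23.8 ± 12.2 to 5.88 ± 2.31 normalized CPM (SD, n = 3 each), with an adjusted p of 0.836 (from 0.101 to 1 over its alternatives). It was also the only member whose groups did not overlap, 1 lower and 0 higher, beside 6.99% and 6.77% of all genes. Irgm1 had the next smallest p, at -0.52 ± 0.29, which became -0.13 without Sham replicate 2 and -0.81 without Sham replicate 1. Without Sham replicate 2 the median of the members turned to 0.21, with 22 of 37 higher in AB. Neutrophil markers summed to 1.99 to 3.45 CPM in AB and 5.62 to 29.3 CPM in Sham. Red blood cell markers summed to 305 to 1324 CPM in AB and 236 to 274 CPM in Sham, and T and NK cell markers to 1.71 to 2.86 and 3.31 to 3.41 CPM. The part of these cells was not tested.

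AB_Implant against Sham asks the same with the inactive device in place, and it shares the Sham libraries. Here 23 members were lower and 14 higher, with a median log2 fold change of -0.21 against -0.01 for all genes. By edgeR and by DESeq2 0 members were called, beside 0.281% of all genes by edgeR and 236 genes by DESeq2. Of the members, 3 had an unadjusted p under 0.05, against 9.64%. Irgm1 had a log2 fold change of -0.77 ± 0.29 with an adjusted p of 0.327, or -0.38 without Sham replicate 2, and Iigp1 of -1.24 ± 0.55 with an adjusted p of 0.464. Gbp5, another guanylate-binding protein, was the 1 member without overlap, at -1.13 ± 0.51, beside 9.32% of all genes lower in this way. Without Sham replicate 2 the median turned to 0.26, with 30 of 37 members higher. It was -0.50 without Sham replicate 1, -0.35 without Sham replicate 3 and -0.12 without AB_Implant replicate 2. Red blood cell markers summed to 357 to 741 CPM in AB_Implant and 236 to 274 CPM in Sham, and B cell markers to 0.378 to 0.912 and 0.981 to 1.62 CPM. Their part was not tested. With the length slope as a covariate Iigp1 passed with an adjusted p of 0.0209 (from 0.0209 to 1 over 16 alternatives) and Psmb9 with 0.0482 (from 0.0482 to 1), where 6.03% of all genes passed.

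AB_Implant against AB compares banded mice with and without the inactive device, its implantation included. The members split 21 higher and 16 lower, with a median of 0.13 against 0.01 for all genes. Leaving out any 1 of the 6 libraries moved this median by over 1.5 times: it was 0.01, 0.26 and -0.02 without AB replicates 1, 2 and 3, and 0.03, 0.23 and -0.03 without AB_Implant replicates 1, 2 and 3. The tests called 0 members by edgeR and by DESeq2, beside 0% of all genes by edgeR and 68 genes by DESeq2. An unadjusted p under 0.05 was held by 1 member, against 9.08%. This was Gbp6, at 1.18 ± 0.43 with an adjusted p of 0.429, and Ifit1 followed at 0.81, or 0.44 without AB_Implant replicate 3. Without overlap, Gbp6, Oasl2 and Irf9 were higher and Gbp2 lower, 3 and 1 of 37, beside 9.11% and 7.99% of all genes. Neutrophil markers summed to 4.81 to 9.45 CPM in AB_Implant and 1.99 to 3.45 CPM in AB, and the mitochondrial share was 34.4% to 44.4% and 45.7% to 50.0%. Their part was not tested.

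**Figure D4:**
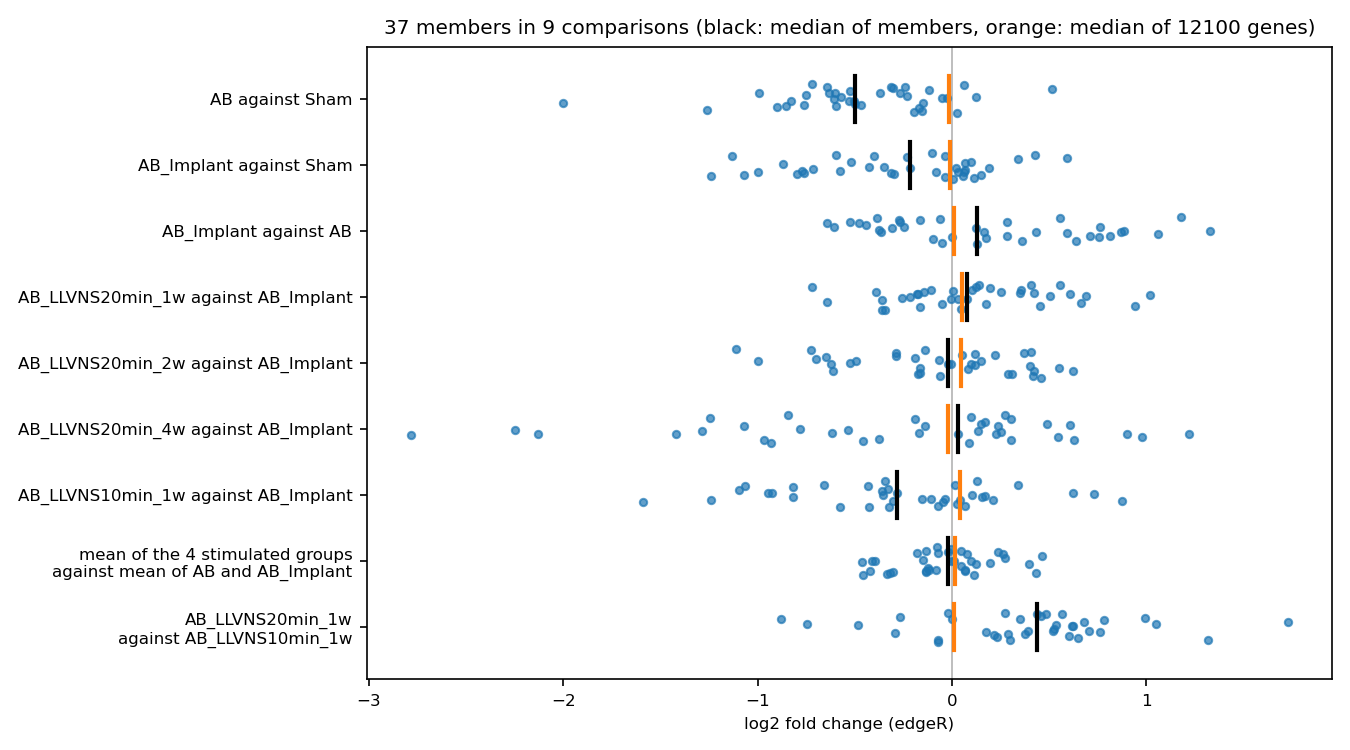
Log2 fold change of 37 members (points) in 9 comparisons, with the median of the members (black) and of 12100 genes (orange). The medians of the members run from -0.50 in AB against Sham to 0.44 in AB_LLVNS20min_1w against AB_LLVNS10min_1w, and the points lie on both sides of 0 in each comparison.

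Each stimulated group was set against AB_Implant, the control that carried the device, so these 4 comparisons share their controls. In AB_LLVNS20min_1w 22 members were higher and 15 lower, with a median of 0.08 against 0.05 for all genes. The median was -0.04 with 15 higher without AB_Implant replicate 2, and 0.25 with 26 higher without AB_Implant replicate 3. It was 0.13 and 0.12 without AB_LLVNS20min_1w replicates 2 and 3. The number called was 0 by edgeR and by DESeq2, beside 0.463% of all genes by edgeR and 190 genes by DESeq2. Of the members, 1 had an unadjusted p under 0.05, against 8.77%. Psmb9 had a log2 fold change of 0.94 ± 0.42 (adjusted p = 0.507) and Gbp5 of 1.02. Groups did not overlap for Irf1 and Gbp5, which were higher, and for Oasl2 and Ifi44, which were lower, beside 5.76% and 6.67% of all genes. The nearest libraries of AB_LLVNS20min_1w and AB_Implant were close for Ifi44 (0.9069 and 0.9075 normalized CPM), Irf1 (10.03 and 9.98) and Oasl2 (4.84 and 4.92). For Gbp5 they were at 2.82 and 2.61. Psmb9 passed in 1 of 16 alternatives, the length slope covariate together with leaving out Sham replicate 2, at 0.78 with an adjusted p of 0.0471 (from 0.0471 to 1.00 over the alternatives), where 3.70% of all genes passed. B cell markers summed to 0.934 to 2.12 CPM in AB_LLVNS20min_1w and 0.378 to 0.912 CPM in AB_Implant, and their part was not tested.

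In AB_LLVNS20min_2w 17 members were higher and 20 lower, with a median of -0.02 against 0.05 for all genes. Calls were 0 by edgeR and by DESeq2, beside 0.174% of all genes by edgeR and 78 genes by DESeq2. Of the members, 0 had an unadjusted p under 0.05, against 5.10%. Ifit1 was at -1.0, or -0.62 without AB_Implant replicate 3, and Oasl2 at -0.61, both with an adjusted p of 0.938. These and Isg15 were the 3 members without overlap, all lower, beside 3.74% of all genes lower and 3.57% higher in this way. Without AB_LLVNS20min_2w replicate 1 the median moved to -0.37, without AB_Implant replicates 1, 2 and 3 to -0.10, -0.08 and 0.01, and without AB_LLVNS20min_2w replicate 2 to -0.0011. Endothelial markers summed to 1261 to 1718 CPM here and 989 to 1147 CPM in AB_Implant, and their part was not tested.

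AB_LLVNS20min_4w gave the widest spread, from -2.78 for Gbp7 to 1.22 for Psmb9. Gbp7 was near the floor, with 3, 3 and 2 counts in AB_LLVNS20min_4w and 12, 6 and 85 in AB_Implant replicates 1, 2 and 3. Of the members, 19 were higher and 18 lower, with a median of 0.03 against -0.02 for all genes. Under other scalings this median ran from -0.25 to 0.04 and that of all genes from -0.31 to -0.01. With 1 library left out it ran from -0.16 without AB_Implant replicate 2 to 0.14 without AB_LLVNS20min_4w replicate 1. It was also negative without AB_Implant replicate 1 (-0.03) and without AB_LLVNS20min_4w replicates 2 (-0.01) and 3 (-0.14). The tests called 0 members by edgeR and by DESeq2, beside 0.322% of all genes by edgeR, and 4 members had an unadjusted p under 0.05, against 26.3%. Psmb9 had a log2 fold change of 1.22 ± 0.42, from 4.68 ± 0.93 to 10.9 ± 2.72 normalized CPM (SD, n = 3 each), with an adjusted p of 0.151. Gbp6 had -1.24 ± 0.44, from 7.83 ± 2.06 to 3.31 ± 1.57, with an adjusted p of 0.152. Libraries did not overlap for 5 members that were higher, Psmb9, Psmb8, Xaf1, Ifi35 and Igtp, and for 7 that were lower, Gbp7, Ifit2, Parp14, Trim25, Gbp6, Stat2 and Irf9, beside 23.2% and 25.6% of all genes. With these 2 groups fitted alone 10 members passed, beside 36.4% of all genes, and without the 3 libraries of length slope above 0.3 it was 9, beside 32.2%. With the length slope as a covariate 0 passed, and Psmb9 was at 0.54 with an adjusted p of 0.431 (from 0.00629 to 0.431 over 16 alternatives). The slopes of AB_LLVNS20min_4w were -0.291 to -0.248 and those of AB_Implant 0.0292 to 0.249. Mitochondrial shares were 49.6% to 52.7% and 34.4% to 44.4%. Cardiomyocyte markers summed to 85130 to 90287 CPM against 50944 to 70680 CPM in AB_Implant, endothelial markers to 1306 to 1693 against 989 to 1147 CPM and red blood cell markers to 1011 to 1467 against 357 to 741 CPM. B cell markers summed to 1.00 to 1.82 CPM against 0.378 to 0.912 CPM in AB_Implant. The part of each in the result was not tested.

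In AB_LLVNS10min_1w 24 members were lower and 13 higher, with a median of -0.28 against 0.04 for all genes. The median was -0.07 without AB_LLVNS10min_1w replicate 3 and -0.08 without AB_Implant replicate 3. All 5 genes of the IFIT and ISG15 system and all 4 transcription factors were on the lower side, and 6 of 9 GTPases on the higher. The number called was 0 by edgeR and by DESeq2, beside 0.157% of all genes by edgeR, and 1 member had an unadjusted p under 0.05, against 6.68%. Oasl2 had a log2 fold change of -1.09 ± 0.35, from 6.02 ± 1.03 to 2.81 ± 0.58 normalized CPM (SD, n = 3 each), with an adjusted p of 0.374, and Ifit3 was at -1.07, or -0.48 without AB_Implant replicate 3. Libraries did not overlap for 7 members, all lower, beside 6.15% of all genes lower and 4.81% higher in this way: Dhx58, Rtp4, Ifit3, Gbp2, Ifi44, Isg15 and Oasl2. The gap was small for Dhx58 (1.56 against 1.59 normalized CPM), Gbp2 (11.7 against 11.8) and Ifit3 (4.74 against 4.84). These are the highest AB_LLVNS10min_1w and the lowest AB_Implant values. The gap was wider for Rtp4, Ifi44, Isg15 and Oasl2. Macrophage and monocyte markers summed to 143 to 211 CPM here and to 216 to 326 CPM in AB_Implant, and neutrophil markers to 1.49 to 3.55 and 4.81 to 9.45 CPM. Their part in the result was not tested.

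Session length was compared at the same start week. In AB_LLVNS20min_1w 29 members were higher than in AB_LLVNS10min_1w and 8 lower, with a median of 0.44 against 0.01 for all genes. Calls were 0 by edgeR and by DESeq2, beside 0.0992% of all genes by edgeR, and 3 members had an unadjusted p under 0.05, against 4.54%. Ifit3 had a log2 fold change of 1.32 ± 0.52, between means of 8.98 ± 2.17 and 3.56 ± 1.45 normalized CPM (SD, n = 3 each), with an adjusted p of 0.828. Psmb9 was at 1.05, and passed in 1 of 16 alternatives (length slope covariate without Sham replicate 2) at 0.95 with an adjusted p of 0.0331 (from 0.0331 to 1 over the alternatives), where 1.16% of all genes passed. Ifit3, Oasl2, Dhx58 and Zbp1 were higher without overlap, 4 of 37, beside 4.50% of all genes. For Dhx58 the gap was small, with 1.61 normalized CPM in the lowest AB_LLVNS20min_1w library against 1.56 in the highest AB_LLVNS10min_1w library. Dhx58 and Zbp1 encode sensors of viral RNA and of left-handed nucleic acid. The marker sums of macrophages (249 to 353 against 143 to 211 CPM) and of neutrophils (3.60 to 46.3 against 1.49 to 3.55 CPM) also did not overlap between these groups, nor did those of T and NK cells (2.80 to 4.33 against 1.27 to 2.66 CPM), and their part was not tested.

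With the mean of the 4 stimulated groups set against the mean of AB and AB_Implant, 16 members were higher and 21 lower, with a median of -0.02 against 0.02 for all genes. With 1 library left out the median ran from -0.13 to 0.01, lowest without AB_LLVNS20min_2w replicate 1 and above 0 without AB replicate 3 or AB_Implant replicate 3. The tests called 0 members by edgeR and by DESeq2, beside 0.438% of all genes by edgeR, and 0 had an unadjusted p under 0.05, against 5.00%. Oasl2 was at -0.42 and Psmb9 at 0.43, and 0 members were without overlap in either direction, beside 0.215% higher and 0.0165% lower of all genes. Without the 3 libraries of length slope above 0.3, Psmb9, Psmb8 and Ifit2 passed, beside 18.0% of all genes. In the F test over 7 groups 0 members were called by edgeR, beside 0.537% of all genes, and 3 had an unadjusted p under 0.05, against 10.6%. These were Iigp1 (adjusted p = 0.305), Psmb9 (0.444) and Gbp6 (0.444). DESeq2's likelihood ratio test called 1 member, Iigp1, with an adjusted p of 0.0283, beside 4.47% of all genes. Over 30 alternatives the adjusted p of Iigp1 ran from 0.0114 to 0.681.

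The rest of the pathway was read from lists of genes. The lists held 22 interferon receptor and signalling genes tested, 51 other interferon-stimulated genes, 19 MHC class I genes and 8 MHC class II genes. Of these, 0 were called in any comparison, beside 0% to 0.463% of all genes. An unadjusted p under 0.05 was held by 0 to 7 genes of a list, beside 4.54% to 26.3% of all genes. The range of 0 to 7 pools lists and comparisons, so it cannot be read against the share of a single comparison. B2m, the light chain of MHC class I, held 118, 274 and 234 normalized CPM in Sham, 258, 356 and 205 in AB and 236, 218 and 245 in AB_Implant. It ranged from 126 to 405 in the stimulated groups. H2-K1, a class I heavy chain, held 76.6, 152 and 157 in Sham, 151, 157 and 93.7 in AB and 93.7, 124 and 119 in AB_Implant, and 75.7 to 176 in the stimulated groups. Cd74, the invariant chain of MHC class II, held 34.6, 72.8 and 102 in Sham, 88.7, 145 and 58.5 in AB and 41.7, 92.7 and 50.7 in AB_Implant. Cd74 was at 107, 61.8 and 146 in AB_LLVNS20min_1w, 55.5, 151 and 145 in AB_LLVNS20min_2w, 102, 128 and 123 in AB_LLVNS20min_4w and 83.0, 42.5 and 81.5 in AB_LLVNS10min_1w. All AB_LLVNS20min_4w libraries of Cd74 were above all AB_Implant libraries, beside 23.2% of all genes higher in this way. The same held for B2m, at 277 to 402 in AB_LLVNS20min_4w, and for H2-K1, at 132 to 160. B2m in AB_LLVNS10min_1w, at 177 to 212, was below all AB_Implant libraries, beside 6.15% of all genes lower in this way. Otherwise the stimulated groups overlapped with AB_Implant for these genes. For B2m, H2-K1 and Cd74, Sham replicate 2 was not the highest library. The adjusted p of the F test was 0.612 for B2m, 0.842 for H2-K1 and 0.614 for Cd74.

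The members differed in how they followed the length slope of the libraries. Because the slope is itself computed from transcript length, long genes rise with it and short genes fall with it by construction, and the lengths below are a description. In the fit with the slope as a covariate, an analysis added after the values were seen, 11 of 37 members rose with the slope, beside 33.9% of all genes, and 13 fell with it, beside 31.2%. Gbp7 rose by 4.72 log2 units per unit of slope, Ifit2, an RNA-binding IFIT protein, by 4.36, Rsad2 by 3.85 and Trim25, a ubiquitin ligase of RNA sensing, by 3.83. Psmb8 fell by 2.54, and Isg15, Bst2, Irf7, Psmb9 and Tap1 were among the others that fell. The 11 that rose had transcripts of 3121 to 7417 bases (median 4313) and the 13 that fell of 756 to 3911 bases (median 1907). Over all genes the medians were 4850 and 2057 bases. The lengths of the members overlapped, since Tap1 at 3911 bases fell and Iigp1 at 3121 bases rose. All 5 members higher without overlap in AB_LLVNS20min_4w than in AB_Implant were among those that fell with the slope, beside 82.4% of the 2803 genes that were higher in this way. Of the 7 lower ones, 5 were among those that rose with it, beside 84.3% of 3102 genes.

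**Figure D5:**
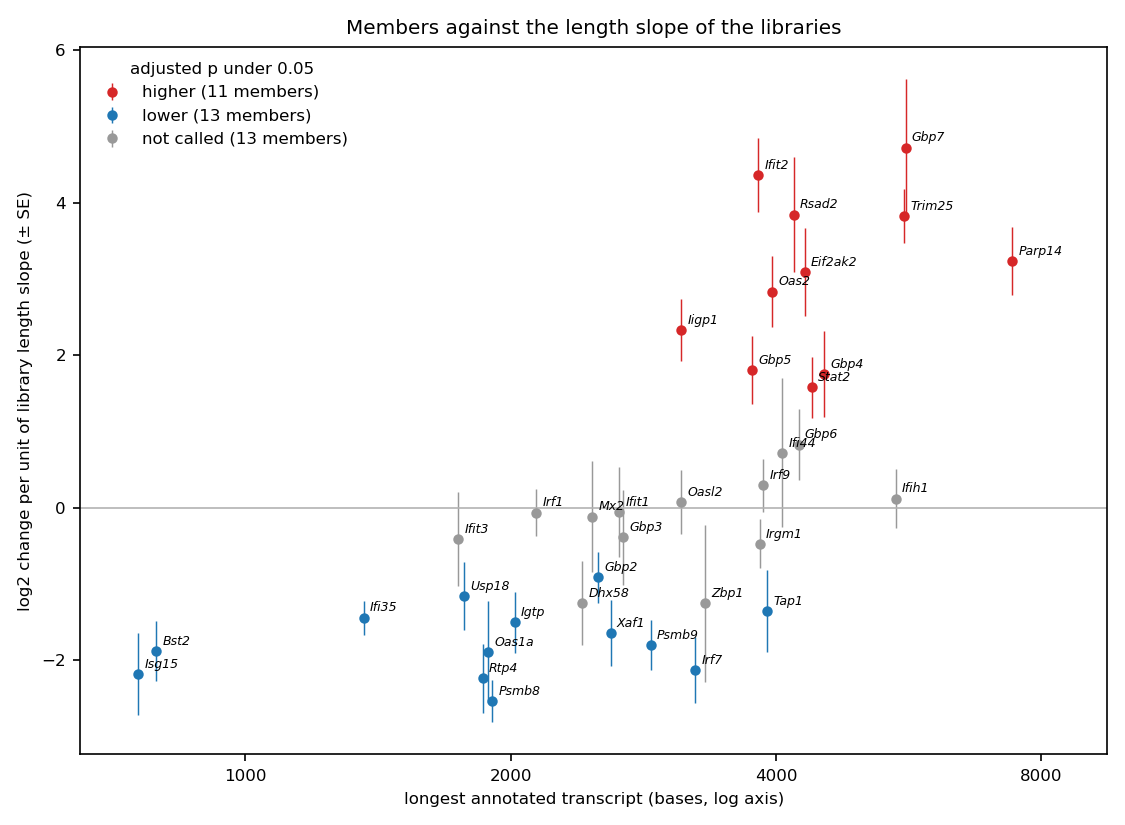
Log2 change per unit of library length slope (± SE) against the longest annotated transcript of each of 37 members (log axis). The 11 members that rose (red) have transcripts of 3121 bases or more, and the 13 that fell (blue) have transcripts of 3911 bases or less.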

How the data were processed

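Left ventricle RNA-seq counts were analysed for 21 libraries in 7 groups of 3. HISAT2 2.1.0 and featureCounts 1.6.0 are named with build GRCm38, per the submitters' processing notes, beside cutadapt 1.11. The authors deposited 1 table of counts under a name that speaks of normalized values. The values were read as raw counts, because 100% were whole and their totals differed. Whether strand was used in counting is not given in the sources used here.

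Here edgeR 4.0.16 (R 4.3.3) gave TMM factors and the quasi-likelihood test, with all 7 groups in 1 model, for genes with at least 1 CPM in at least 3 libraries, called at an adjusted p under 0.05. DESeq2 was version 1.42.0. SE values follow from the F statistic. Scripts were tested on simulated counts. Gene coordinates and transcript lengths are from GENCODE M21.

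Members and lists were chosen with earlier results of these data known. Values are given for the 8 members of smallest p in the F test, and for 13 members fixed by role, with B2m, H2-K1 and Cd74 of the pathway. One further pathway gene is not reported here. Other genes are named after their values were seen. The labels call the libraries biological replicates, so p-values describe spread between mice.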

Additional observations from a re-analysis of the deposited data

How the results depend on the processing

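Besides the alternatives given with each comparison, the settings were other scaling factors (RLE, upper quartile, total without mitochondrial genes), no filter, DESeq2, a length slope covariate, leaving out the 3 libraries of length slope above 0.3, the groups compared alone, and each replicate left out in turn. The count of members called was 0 as reported and in 175 of 185 alternatives. The other 10 gave 2 members in AB_Implant against Sham and 2 in the F test with the length slope covariate, 1 in the F test by DESeq2, and 1 in AB_LLVNS20min_1w against AB_Implant and 1 against AB_LLVNS10min_1w with that covariate and without Sham replicate 2, a choice made after seeing the data. Without the libraries of length slope above 0.3 they gave 1 in AB_LLVNS20min_2w (Ifit2, beside 14.7% of all genes), 9 in AB_LLVNS20min_4w, 3 in the pooled comparison and 3 in the F test (beside 20.3% of all genes), and with the groups alone 10 in AB_LLVNS20min_4w. Leaving out any 1 replicate gave 0 to 0 members in every comparison. Log2 fold changes were recomputed for 18 pairs of a gene and a comparison, and 0 of these reversed. Signs of other members did turn: without Sham replicate 2, 22 of 37 were higher in AB than in Sham, against 4 as reported. The replicate numbers did not pair the libraries: of 63 pairs with the same number, 17 had deviations correlated above 0.1, from -0.70 to 0.78. With the replicate block 0 members were called in every comparison.

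The counts over all genes moved more. In AB_Implant against Sham they were 34 as reported, 236 by DESeq2, 730 with the covariate, 0 with the replicate block and 0 to 155 with 1 replicate left out. In AB_LLVNS20min_4w against AB_Implant they were 39 as reported, 4003 with the groups alone, 3795 without the libraries of length slope above 0.3 and 59 with the covariate. For the F test they were 65 as reported, 541 by DESeq2, 506 with the covariate, 2390 without those libraries and 42 to 143 with 1 replicate left out. In the other comparisons 0 to 56 were reported, with 11 to 190 by DESeq2 and 4 to 487 with the covariate. Without the libraries of length slope above 0.3 they were 1727 in AB_LLVNS20min_2w against AB_Implant, where 21 were reported, and 2124 in the pooled comparison, where 53 were. The cause was not tested. Low levels limit precision: Mx1 and Cxcl10 were below the filter, and with 3 libraries a group an adjusted p above the threshold does not show that groups are alike.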
